A study of Mus musculus with 6 samples.

Results

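The ventral prostate (VP) of a mouse carrying a human MYC transgene (MYC) was compared with the dorsolateral prostate (DLP) of the same mouse by bulk RNA-seq. These are 2 of the 6 libraries of the series, 1 library a side. The comparison covered the 12361 genes, of 24908 listed, whose mean over the 6 libraries was at least 1 FPKM (a read density corrected for transcript length and for the mapped reads of the library). The measure is the log2 ratio of VP over DLP, computed on FPKM + 1, so that a positive value means more in VP and the ratio of a low gene is understated. The same ratio in a wild-type (WT) littermate stood beside it, and the question was which differences between the lobes stay, vanish or appear in the transformed lobes. The 2 ratios share no library.

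Both animals were male FVB mice of 12 weeks. The MYC mouse was heterozygous for human c-MYC under the ARR2Pb promoter, a probasin-derived promoter that is switched on by androgen in the prostate epithelium, and the WT littermate lacked the transgene. Each lobe was dissociated to single cells, and poly(A) RNA from an aliquot was sequenced. The anterior prostate (AP) gave the other 2 libraries. Every MYC library was made from the same mouse and every WT library from its littermate. No value here has a replicate, no p-value was computed, and the effects of the genotype and of the individual mouse cannot be told apart. Reads recovered from the steps of low FPKM came to 41.1 M in MYC VP, 34.8 M in MYC DLP, 49.6 M in WT VP and 47.2 M in WT DLP.

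The lobes of the mouse prostate are separate gland systems, each with its own set of secreted proteins made by luminal cells, around which lie basal cells, fibroblasts, smooth muscle and vessels. Many of the secretory genes depend on androgen. MYC is a transcription factor that raises ribosome production and anabolic metabolism, and in this model it is driven in the luminal cells of the lobes. The labelled tissue held its defining luminal markers: Krt8, a keratin of luminal cells, was at 1101 FPKM in MYC VP, 531.1 in MYC DLP, 1292 in WT VP and 445.7 in WT DLP. The gene listed as Myc was at 1696 FPKM in MYC VP and 586.1 in MYC DLP, against 226.4 in WT VP and 200.6 in WT DLP. Its FPKM was 2.89-fold higher in MYC VP than in MYC DLP, and the table does not separate human from mouse MYC. Myc is itself among the genes whose lobe difference appeared in the MYC mouse, with a log2 ratio of 1.53 against 0.17 in WT.

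In the MYC mouse, 438 genes were at least 2-fold higher in VP and 1735 at least 2-fold higher in DLP, which is 3.54% and 14.0% of the genes compared. In the WT mouse the numbers were 325 and 778, or 2.63% and 6.29%. The split depends on the scaling: by medians of ratios it was 628 and 1401 in MYC and 496 and 532 in WT. The lobes of the MYC mouse differed in 2173 genes and those of the WT mouse in 1103 as deposited, an order that turns around with Krt8 and Krt18 set equal (92 and 5720 in MYC, 63 and 9885 in WT), and the standard deviation of the log2 ratio over genes was 0.86 against 0.71. Pearson's r between VP and DLP across genes was 0.887 in MYC and 0.920 in WT; genes are not independent replicates. At the far end the count grew on the DLP side: 33 genes were at least 8-fold higher in MYC VP and 85 in MYC DLP, against 34 and 41 in WT. Counting error was small beside these differences. The exact 95% interval (Clopper-Pearson) of the ratio of estimated reads, taken without the pseudocount, lay wholly past 2-fold for 2043 of the 2173 genes, but it covers counting of reads only and not the difference between animals.

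Of the 1103 lobe differences of the WT mouse, 722 (65.5%) stayed, meaning at least 2-fold in the same direction in MYC. Another 203 were reduced to a log2 ratio between 0.5 and 1, and 146 (13.2%) vanished to within 0.5 of 0. The direction turned around in 19, past 2-fold both ways, and the other 13 turned without reaching 2-fold in MYC. By lobe, 166 of the 325 VP-higher genes stayed (51.1%), against 556 of the 778 DLP-higher genes (71.5%), a difference that was not tested. Among the genes that stayed, the difference was larger in MYC than in WT for 389 of 556 DLP-higher genes (70.0%) and for 79 of 166 VP-higher genes (47.6%). Seen from the MYC side, 591 of the 2173 differences appeared from a WT log2 ratio within 0.5 of 0 (130 VP higher, 461 DLP higher), and 809 widened from a smaller WT ratio of the same direction (124 and 685).

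**Figure D1:**
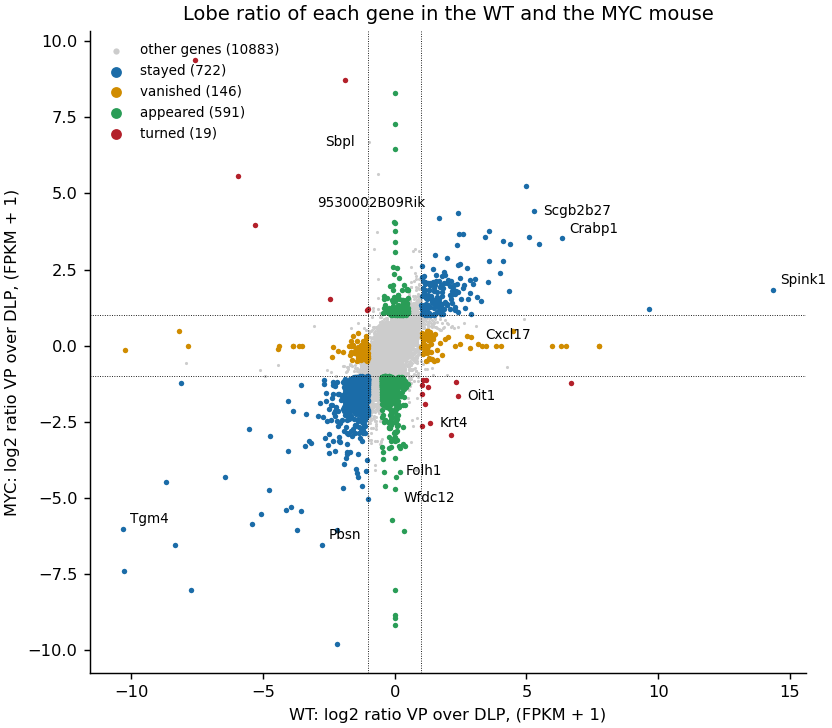
Log2 ratio of VP over DLP on FPKM + 1 in the WT mouse (x axis) and in the MYC mouse (y axis), 1 point for each of the 12361 genes, coloured by class, with dotted lines at 2-fold. The 722 genes that stayed lie in the lower left and upper right corners, and the 591 that appeared lie along the vertical axis and mostly in its lower arm. The most extreme unlabelled points include microRNA and small nucleolar RNA genes, without which 414 genes were VP higher and 1709 DLP higher in MYC.

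**Figure D2:**
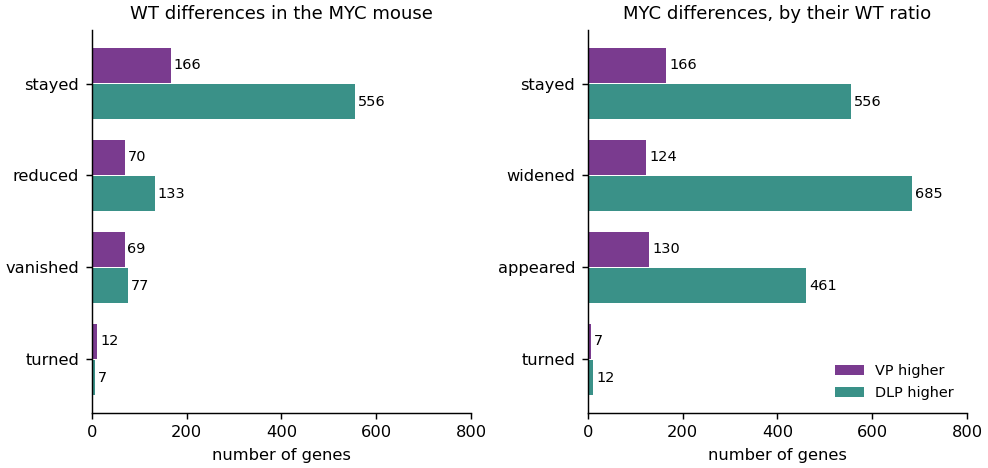
Number of genes in each class. The left panel follows the WT differences, by the lobe that was higher in WT, and the right panel the MYC differences, by the lobe that was higher in MYC: DLP-higher genes outnumber VP-higher genes in every class drawn except for the WT differences that turned around, where 12 had been VP higher and 7 DLP higher.

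The VP genes that stayed included several with very low values in AP. Scgb2b27, a secretoglobin (chr7:34011919-34013942; coordinates are those of RefSeq on GRCm38.p6, the mm10 assembly that the processing notes name), was at 509.9 FPKM in MYC VP and 22.97 in MYC DLP, and at 38.01 in WT VP and listed at 0 in WT DLP. Crabp1, which binds retinoic acid in the cytoplasm (chr9:54764748-54773110), was at 682.6 FPKM in MYC VP and 58.16 in MYC DLP, against 97.74 and 0.213 in WT. Both genes were higher in MYC VP and MYC DLP than in the same WT lobes, and their lobe log2 ratio narrowed from 5.29 to 4.41 and from 6.35 to 3.53. Slc26a4, the anion exchanger pendrin, was at 29.68 FPKM in MYC VP and 1.418 in MYC DLP, against 23.36 and 3.018 in WT. Trpv6, an epithelial calcium channel, was at 20.1 and 1.098 FPKM, against 32.31 and 0.622. Abo, a glycosyltransferase of blood group antigens, was at 134.4 and 12.77 FPKM, against 231.6 and 44.49. These 3 genes stood at a similar level in MYC VP and WT VP, within a log2 ratio of 0.78 of each other. In MYC AP the same 5 genes were between 0 (Scgb2b27, as listed) and 2.463 FPKM (Abo). For 160 of the 166 VP-higher genes that stayed (96.4%), MYC AP lay nearer to MYC DLP than to MYC VP, which the choice of genes with VP above DLP in both mice makes likely.

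A neighbouring pair of keratin-associated protein genes, whose products are known from the hair shaft, kept the level of the WT lobe. Krtap3-3 (chr11:99550132-99550863) was at 52.3 FPKM in MYC VP and 3.547 in MYC DLP, against 55.29 and 0.658 in WT. Krtap3-2 (chr11:99555823-99556853) was at 74.74 and 6.442 FPKM, against 76.43 and 0.753. In both, VP moved by -0.08 (Krtap3-3) and -0.03 (Krtap3-2) on the log2 scale and the narrowing from 5.09 to 3.55 and from 5.46 to 3.35 came with the rise in DLP. Their promoters are shown because the genes lie side by side and hold the same pattern. The sequences are the 250 bases before the first listed start of each gene, from RefSeq on GRCm38.p6, at chr11:99556854-99557103 and chr11:99550864-99551113, both on the minus strand and printed 5′ to 3′ on that strand. Capitals mark the CCAAT box, searched as CCAAT on both strands.
Krtap3-2: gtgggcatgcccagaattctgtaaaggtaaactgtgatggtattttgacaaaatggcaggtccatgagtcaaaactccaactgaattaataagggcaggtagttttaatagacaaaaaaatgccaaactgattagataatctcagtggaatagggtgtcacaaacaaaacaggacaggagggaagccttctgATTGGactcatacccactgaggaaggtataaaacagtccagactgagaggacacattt
Krtap3-3: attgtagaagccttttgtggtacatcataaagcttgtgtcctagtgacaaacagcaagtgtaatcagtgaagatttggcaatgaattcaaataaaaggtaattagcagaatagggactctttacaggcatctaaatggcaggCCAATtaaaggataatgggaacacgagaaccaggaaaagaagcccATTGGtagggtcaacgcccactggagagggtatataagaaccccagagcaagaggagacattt
Base by base the stretches agree at 89 of 250 positions (35.6%), with a longest shared run of 6 bases. Of 27025 genes with a promoter in the RefSeq table, 34.5% hold CCAAT in this window, and among the VP-higher genes that stayed the share was 35.2% (43 of 122 found).

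The largest lobe difference of WT VP shrank while keeping its direction. Spink1, a secreted trypsin inhibitor, was at 25230 FPKM in WT VP and 0.197 in WT DLP, and at 285.3 in MYC VP and 79.47 in MYC DLP. Its log2 ratio fell from 14.36 to 1.83, with VP lower and DLP higher in the MYC mouse than in the WT mouse. The opposite was seen for 9530002B09Rik, which was at 2916 FPKM in MYC VP and 140.2 in MYC DLP, against 6649 and 1249 in WT. This gene was lower in both MYC lobes, more so in DLP, and its ratio grew from 2.41 to 4.37. The keratins of luminal cells kept their lean to VP: Krt8 had a ratio of 1.05 against 1.53 and Krt18 of 1.10 against 1.61, and Cldn3, a tight junction protein, of 1.81 against 2.17.

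Secretory genes that were higher in MYC DLP than in MYC VP included Pbsn and Msmb, which stayed, and Defb50, which widened. Pbsn, which encodes probasin (chrX:77837898-77853500), was at 1.902 FPKM in MYC VP and 267.3 in MYC DLP, against 2055 and 14040 in WT. Between WT and MYC it fell by 9.47 on the log2 scale in VP and fell by 5.71 in DLP, so that the lobe ratio went from -2.77 to -6.53, on an estimated 47 reads in MYC VP. Msmb, a microseminoprotein, was at 29.96 and 345.9 FPKM, against 2664 and 8601 in WT. Its ratio went from -1.69 to -3.49. Defb50, a beta-defensin, was at 549.6 and 4866 FPKM, against 11120 and 18600, and widened from -0.74 to -3.14. These 3 genes were lower in MYC VP and MYC DLP than in the same WT lobes, and in each of them MYC VP held the lowest of the 4 VP and DLP values. Of the 32 genes of the androgen response list that were compared, 4 were VP higher and 10 DLP higher in MYC, 2 and 9 in WT, and the median ratio was -0.16 in MYC and -0.17 in WT. Over all genes compared, 3.54% were VP higher and 14.0% DLP higher in MYC, and 2.63% and 6.29% in WT.

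Rnase1, Mmp7, Fgl1 and Sprr2a3 stayed with a higher value in MYC DLP than in WT DLP, and Tgm4 with a lower one. Rnase1, a secreted ribonuclease, was at 16.25 FPKM in MYC VP and 730.7 in MYC DLP, against 26.0 and 470.8 in WT. Mmp7, the metalloproteinase matrilysin, was at 23.49 and 651.0 FPKM, against 14.08 and 413.6. Their ratios in MYC and WT were -5.41 and -4.13 for Rnase1 and -4.73 and -4.78 for Mmp7. Tgm4, the prostate transglutaminase that cross-links seminal proteins, was at 0.446 and 92.51 FPKM, against 0.400 and 1804. Its VP value was low in both mice, on an estimated 19 reads in MYC VP, and its ratio went from -10.33 to -6.01 as the DLP value dropped. Fgl1, a fibrinogen-like secreted protein, was at 0.453 and 62.11 FPKM, against 0.220 and 13.57. Sprr2a3, a small proline-rich protein of squamous epithelium, was at 0.741 and 114.7 FPKM, against 0.602 and 6.277. Both were higher in MYC DLP than in WT DLP, with lobe ratios of -5.44 and -6.05. For 349 of the 556 DLP-higher genes that stayed (62.8%), MYC VP was the lowest of the 6 libraries, a position that choosing genes with VP below DLP in both mice makes likely.

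Spermine-binding protein cannot be read from this table. Sbp was listed at 0 in MYC VP and at 877.6 FPKM in MYC DLP, and its near-identical neighbour Sbpl at 20150 and 196.8 FPKM. In WT the pair was listed at 0 in VP and at 3.583 (Sbp) and 0.981 (Sbpl) FPKM in DLP. Reads of such a pair can be assigned to either copy or to neither, and the log2 ratios of -9.78 and 6.67 in MYC are given as listed. Of the 146 genes that vanished, 21 were listed at 0 in a VP or DLP library, and of the 591 that appeared, 40.

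**Figure D3:**
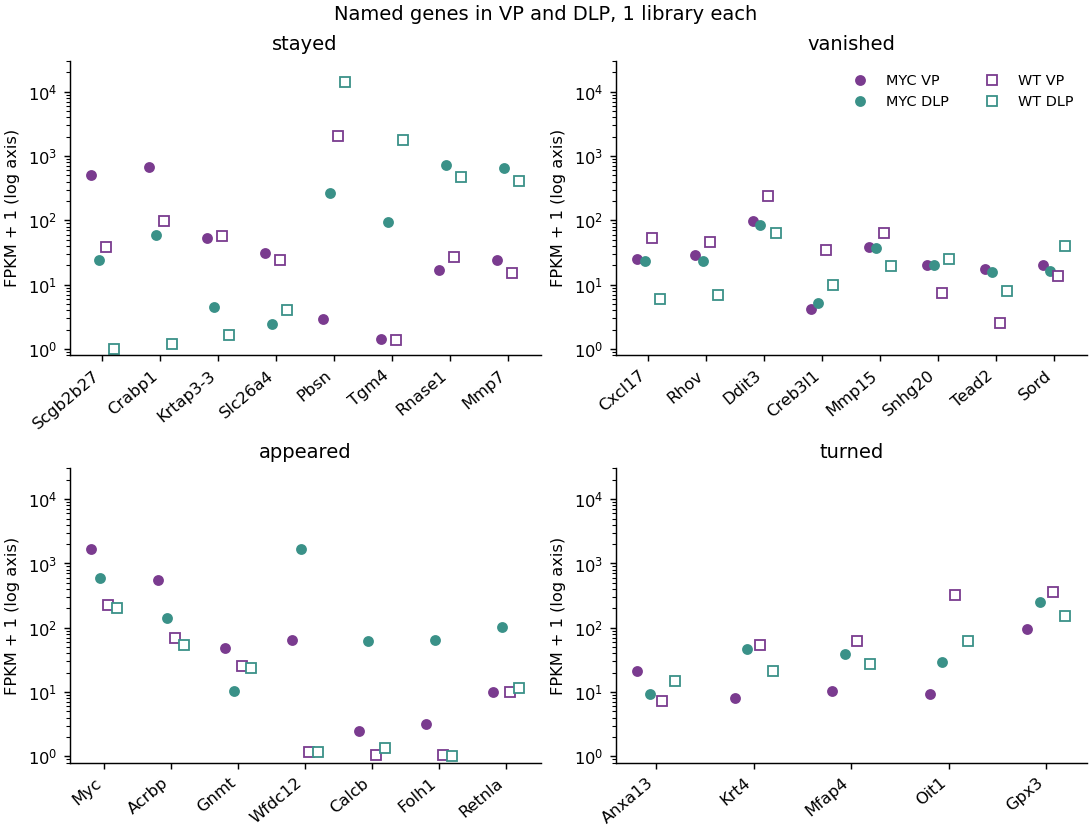
FPKM + 1 on a log axis of named genes in MYC VP and MYC DLP (filled circles) and WT VP and WT DLP (open squares), 1 library each and so without error bars. In the panel of genes that vanished the filled circles of a gene lie together while its open squares lie apart, as in Cxcl17 (23.74 and 22.8 FPKM in MYC, 53.07 and 5.013 in WT), and in the panel of genes that appeared the reverse holds.

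The VP differences that vanished included Ddit3 and Creb3l1, which act in the endoplasmic reticulum stress response. Cxcl17, a chemokine of mucosal epithelium (chr7:25400053-25412886), was at 23.74 FPKM in MYC VP and 22.8 in MYC DLP, against 53.07 and 5.013 in WT: VP was lower and DLP higher than in WT, and the log2 ratio went from 3.17 to 0.06. Rhov, a small GTPase, was at 28.15 and 22.46 FPKM against 45.81 and 5.969. Ddit3, which encodes CHOP of the unfolded protein response, was at 97.3 and 84.06 FPKM, against 237.6 and 61.93. Creb3l1, a transcription factor held in the endoplasmic reticulum, was at 3.215 and 4.188 FPKM, against 33.94 and 9.053. From WT to MYC, Ddit3 fell by 1.28 in VP on the log2 scale and Creb3l1 fell by 3.05. Mmp15, a membrane-type metalloproteinase, was at 38.1 and 35.81 FPKM, against 62.26 and 18.32. The wider list of endoplasmic reticulum chaperones and unfolded protein response genes held few lobe differences. Of 24 compared, 1 was VP higher in MYC and 2 in WT, 0 were DLP higher in either mouse, and the median went from 0.05 to -0.01. Herpud1, a target of that response, stayed, at 347.4 and 129.8 FPKM against 712 and 248.8.

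Among the DLP differences that vanished, Tead2, a transcription factor of the Hippo pathway, was at 16.4 FPKM in MYC VP and 14.66 in MYC DLP, against 1.580 and 7.076 in WT. It was higher in both MYC lobes. Snhg20, a small nucleolar RNA host gene, was at 19.05 and 19.29 FPKM, against 6.445 and 23.96. Sord, sorbitol dehydrogenase and an androgen-responsive gene, was at 19.24 and 15.21 FPKM, against 12.63 and 39.65. Pla2g7, which degrades platelet-activating factor, was at 10.3 and 13.13 FPKM, against 2.189 and 9.447. Sord thus converged through a lower DLP value, and Snhg20 and Pla2g7 mainly through a higher VP value.

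Over all genes compared, VP changed more than DLP between WT and MYC in 59.9%. Of the 69 VP differences that vanished, VP changed more in 52 (75.4%), with a median log2 ratio of MYC over WT of -1.19 in VP and 0.16 in DLP. Of the 77 DLP differences that vanished, VP changed more in 25 (32.5%), with medians of 0.08 in VP and -1.01 in DLP. In both, the lobe that held the higher value in WT had the negative median. Of the 130 VP differences that appeared, VP changed more in 102 (78.5%, medians 1.18 and 0.04), and 120 of the 130 (92.3%) had MYC VP as the highest of all 6 libraries, against 26.8% of all genes. Of the 461 DLP differences that appeared, VP changed more in 206 (44.7%, medians -0.48 in VP and 0.70 in DLP), 186 rose at least 2-fold in DLP and 101 fell at least 2-fold in VP. That share depends on the scaling: it was 52.7% under equal sums and 55.1% under equal sums without the 20 highest genes. MYC DLP was the highest of the 6 libraries in 260 of the 461 (56.4%, against 18.6% of all genes) and MYC VP the lowest in 302 (65.5%, against 28.5%). By construction the change of the lobe ratio is the difference of these 2 ratios, so the counts describe how the change is shared out and are no test. The highest and lowest library likewise follow in part from how the genes were chosen.

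**Figure D4:**
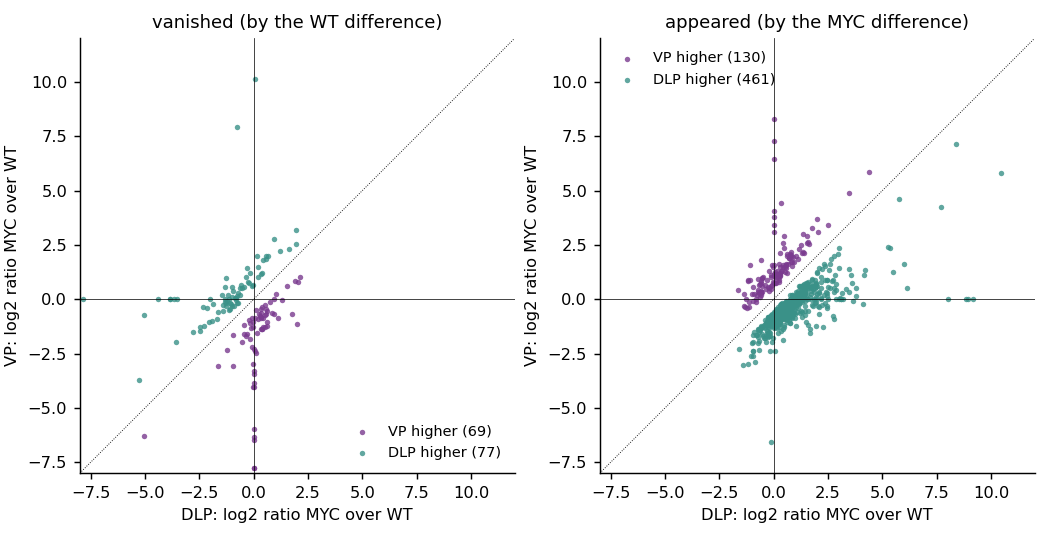
Log2 ratio of MYC over WT on FPKM + 1 in DLP (x axis) and VP (y axis) for the 146 genes whose lobe difference vanished and the 591 whose lobe difference appeared, 1 point a gene, with a dotted line where both lobes changed equally. In the right panel the VP-higher genes lie around a median of 0.04 in DLP and 1.18 in VP, while the DLP-higher genes spread to both sides of 0 in VP.

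Differences that appeared towards VP were led by metabolic genes. Gnmt, which spends the methyl donor S-adenosylmethionine on glycine, was at 47.53 FPKM in MYC VP and 9.364 in MYC DLP, against 24.93 and 22.39 in WT. It was higher than WT in VP and lower in DLP. Acrbp, acrosin-binding protein, was at 561.2 and 138.9 FPKM, against 69.58 and 53.86, higher than WT in both lobes. Sesn1, a stress-induced sestrin, was at 30.69 and 7.814 FPKM, against 6.044 and 4.152. Col6a3, a collagen VI chain, was at 69.58 and 18.91 FPKM, against 12.61 and 13.41, and was the only collagen that was VP higher in MYC among 25 compared. Their log2 ratios in MYC lay between 1.83 (Col6a3) and 2.23 (Gnmt), and in WT between -0.08 and 0.45.

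Genes of cholesterol synthesis moved together towards VP. Of 26 genes of the cholesterol and fatty acid synthesis list that were compared, 11 were at least 2-fold higher in MYC VP and 0 in MYC DLP, against 4 and 0 in WT, and the median log2 ratio was 0.90 in MYC and 0.28 in WT. Over all genes compared the medians were -0.07 and -0.13. With Krt8 and Krt18 set equal the MYC median of the list was -0.08, against -0.95 for all genes. The ratio was above its WT value in 22 of the 26. Hmgcs1, a synthase early in the pathway, was at 56.07 FPKM in MYC VP, 17.44 in MYC DLP and 22.99 in MYC AP, against 26.03, 15.94 and 10.23 in WT VP, DLP and AP. Idi1, an isomerase further down, was at 40.54, 10.01 and 13.8 FPKM, against 19.11, 10.43 and 5.393. In both genes MYC VP was the highest of the 6 libraries and the log2 ratio of MYC DLP over WT DLP was 0.12 for Hmgcs1 and -0.05 for Idi1. Insig1, the sterol-regulated anchor protein of the pathway, was at 62.28, 13.85 and 13.63 FPKM, against 36.0, 12.65 and 7.302, with a ratio of 2.09 (counting interval 2.08 to 2.26) against 1.44. Scd1, a fatty acid desaturase, was at 127.6 FPKM in MYC VP and 31.13 in MYC DLP, against 116.2 and 45.45. Dhcr7, Fdft1, Msmo1, Sqle, Fdps and Scd2 were also among the 11, with ratios between 1.01 (Fdps) and 1.88 (Dhcr7). The regulators Srebf1 (15.7 and 16.19 FPKM in MYC VP and DLP) and Srebf2 (22.59 and 21.77 FPKM) were not among them.

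The promoters of 3 of these genes are shown because sterol-dependent transcription is known to use CCAAT boxes beside a sterol element. They are the 250 bases before the first start in RefSeq (GRCm38.p6, plus strand) of Hmgcs1 at chr13:119690101-119690350, Idi1 at chr13:8885356-8885605 and Insig1 at chr5:28071162-28071411. Capitals mark matches on either strand to the CCAAT box, the sterol element TCACNCCAC, the E-box CACGTG, which MYC with MAX is known to bind, and the androgen half-site AGAACA. No match overlaps another.
Hmgcs1: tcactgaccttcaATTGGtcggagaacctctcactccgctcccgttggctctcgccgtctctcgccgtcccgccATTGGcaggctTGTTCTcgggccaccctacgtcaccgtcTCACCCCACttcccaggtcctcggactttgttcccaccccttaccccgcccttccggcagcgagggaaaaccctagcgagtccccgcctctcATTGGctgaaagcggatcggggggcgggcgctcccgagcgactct
Idi1: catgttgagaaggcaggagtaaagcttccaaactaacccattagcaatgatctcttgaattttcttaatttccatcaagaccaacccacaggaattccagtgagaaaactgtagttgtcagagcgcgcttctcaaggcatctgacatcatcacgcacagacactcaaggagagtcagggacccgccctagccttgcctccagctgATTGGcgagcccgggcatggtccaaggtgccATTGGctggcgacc
Insig1: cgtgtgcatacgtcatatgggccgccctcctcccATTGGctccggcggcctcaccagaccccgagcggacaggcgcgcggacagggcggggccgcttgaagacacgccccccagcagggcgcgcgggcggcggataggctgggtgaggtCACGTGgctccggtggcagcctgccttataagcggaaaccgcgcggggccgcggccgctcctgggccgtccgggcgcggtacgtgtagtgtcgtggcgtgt
CCAAT was held by 14 of the 19 genes of the list that have a promoter in the table (73.7%), against 34.5% of all 27025 promoters and 36.2% of the 9561 of genes compared. The E-box was held by 3 of 19, against 6.0% of all promoters and 8.6% of those of genes compared. The sterol element was held by 1 of 19, against 1.0% and 0.9%, and the androgen half-site by 2 of 19 (10.5%), against 16.2% and 10.7%. Among the VP-higher genes that appeared, the E-box stood in 8 of 85 promoters (9.4%), and among the DLP-higher genes that appeared in 25 of 345 (7.2%), both near the 8.6% of genes compared. A match is a run of letters and not a measured binding site.

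The translation machinery leaned the other way in the MYC mouse than in the WT mouse, by less than 2-fold a gene, a direction that is lost with Krt8 and Krt18 set equal. All 79 cytosolic ribosomal protein genes had a log2 ratio above 0 in MYC and 12 of 79 in WT, 0 were past 2-fold in either mouse, and the median was 0.47 against -0.23, or -0.61 in MYC with Krt8 and Krt18 set equal, a scaling that puts the median of all genes at -0.95. Rps24, of the small subunit, was at 1593 FPKM in MYC VP and 968 in MYC DLP, against 549.6 and 494.6 in WT. Rpl29, of the large subunit, was at 267 and 152.8 FPKM, against 98.07 and 124.3. Over the list, the median change from WT to MYC was 1.35 in VP and 0.68 in DLP. Ribosomal protein genes have many processed copies that can take their reads, and Rpl26 was at 7.334 FPKM in MYC VP and 3.692 in MYC DLP but at 260.2 in MYC AP. Of 35 ribosome biogenesis genes, 34 were above 0 in MYC and 4 in WT, with medians of 0.37 and -0.38 (-0.61 in MYC with Krt8 and Krt18 equal). Npm1, the nucleolar nucleophosmin, was at 904.3 and 460.3 FPKM, against 277 and 273.2, and Ncl, nucleolin, at 103.8 and 63.33, against 61.25 and 68.06. In this list the median change was 0.69 in VP and -0.04 in DLP. Mitosis genes did not share the lean: the 26 mitosis and G2/M genes compared had medians of -0.11 and -0.06 with 1 past 2-fold, Anln, which encodes anillin, at 17.32 and 6.246 FPKM. Their median change from WT to MYC was 2.09 in VP and 2.13 in DLP. The 26 replication genes had medians of 0.11 in MYC and -0.28 in WT, with a ratio above its WT value in 21, but the MYC median was -0.20 over the 2 members of at least 10 FPKM and -0.85 with Krt8 and Krt18 equal.

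The libraries' content of other cell types differed between the lobes, and in bulk RNA fewer cells of a type and less RNA per cell cannot be told apart. All 12 endothelial genes were at least 2-fold higher in DLP in both mice, with a median ratio of -1.94 in MYC and -1.90 in WT; in MYC they ranged from -2.45 (Pecam1) to -1.51. Smooth muscle genes differed little, with 0 of 10 past 2-fold and medians of -0.22 and -0.35. Of 20 fibroblast and matrix genes, 18 were DLP higher in MYC and 5 in WT, against 14.0% and 6.29% of all genes compared. The list held 1 VP-higher gene in WT, and its medians were -1.95 in MYC and -0.80 in WT. Its summed FPKM was 381.8 in MYC VP, 1435 in MYC DLP, 1374 in WT VP and 2625 in WT DLP, so that MYC VP held the lowest sum. Col3a1, a fibrillar collagen, was at 9.82 FPKM in MYC VP and 93.99 in MYC DLP, against 13.77 and 22.3 in WT. Lum, the proteoglycan lumican, was at 0.937 and 27.49 FPKM, against 6.898 and 28.93. The difference of Col3a1 grew through DLP and that of Lum through VP. Of 25 collagen genes compared, 17 were DLP higher in MYC and 3 in WT. Among 17 genes of blood cells, 9 were DLP higher in MYC and 2 in WT, and the median change from WT to MYC was 1.34 in VP and 1.90 in DLP. Cd3e, of the T cell receptor, was at 2.431 and 10.13 FPKM, against 0.531 and 1.981. The part of these cell types in the lobe differences of single genes was not tested.

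Of 10 basal cell genes, 9 were DLP higher in MYC and 4 in WT, against 14.0% and 6.29% of all genes compared. The list had median ratios of -2.03 in MYC and -0.96 in WT. Its summed FPKM was 558 in MYC VP, 2255 in MYC DLP, 821 in WT VP and 1712 in WT DLP. Krt5, a basal keratin, was at 32.15 FPKM in MYC VP and 244.9 in MYC DLP, against 32.99 and 114.7 in WT. Krt14, its partner keratin, was at 104.9 and 438.1 FPKM, against 158.3 and 378.2. Trp63, the transcription factor that defines basal cells, was at 0.814 and 13.51 FPKM, against 3.168 and 3.813. The lobe difference of Trp63 appeared in MYC, with VP lower and DLP higher than in WT. Genes of luminal progenitor and proximal duct cells were DLP higher in 8 of 12 in MYC and in 2 of 12 in WT, with medians of -1.53 and -0.51. Aldh1a3, a retinoic acid-producing dehydrogenase, was at 1.271 and 24.47 FPKM, against 4.841 and 6.893. Wfdc2, a whey acidic protein, was at 32.99 and 179.7 FPKM, against 36.75 and 34.63. Clu, which encodes clusterin, was at 384.8 and 1636 FPKM, against 305.7 and 456. Of 16 luminal genes, 5 were VP higher and 2 DLP higher in MYC, against 3 and 0 in WT. Their median nevertheless went from 0.48 in WT to -0.14 in MYC. A ratio above 0 was held by 13 of the 16 in WT and by 7 in MYC, and 2 of the 16 rose above their WT value. Over all genes compared, 3.54% were VP higher in MYC and 2.63% in WT. Hoxb13, a homeobox gene of the prostate, was at 171.8 and 64.83 FPKM, against 174.2 and 107.2, and so was kept in VP and lower in DLP.

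Differences that appeared towards DLP outnumbered those that appeared towards VP and included genes that were near 0 in both WT lobes. Wfdc12, an antiprotease of the whey acidic protein family (chr2:164189231-164190558), was at 62.74 FPKM in MYC VP, 1657 in MYC DLP and 1028 in MYC AP, against 0.155, 0.163 and 0.075 in WT. Folh1, prostate-specific membrane antigen (chr7:86716525-86776053), was at 2.244, 63.08 and 20.13 FPKM, against 0.044 in WT VP, 0 as listed in WT DLP and 0.014 in WT AP. Calcb, a calcitonin gene-related peptide, was at 1.513 and 60.54 FPKM in MYC VP and DLP and 4.156 in MYC AP, against 0.053, 0.364 and 0.155. All 3 genes were higher in each MYC lobe than in its WT lobe, with MYC VP the lowest of the MYC lobes and MYC DLP the highest. Retnla, a resistin-like protein of alternatively activated macrophages, was at 9.014 FPKM in MYC VP and 102.8 in MYC DLP, against 8.945 and 10.55. Gsdmc2, a gasdermin, was at 3.456 and 44.63 FPKM, against 9.783 and 8.412. Their ratios in MYC lay between -4.70 (Wfdc12) and -3.36 (Gsdmc2), and in WT between -0.37 and 0.20. Seminal vesicle genes gave a trace in MYC DLP: Svs4 was at 4.682 FPKM and Svs5 at 2.624, both listed at 0 in MYC VP and in all WT libraries and at 292.5 and 212 FPKM in MYC AP. Of 5 urothelial genes compared, 4 were DLP higher in MYC, 2 in WT.

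Immune genes leaned to DLP in the MYC mouse and, apart from the chemokines, by their medians in the WT mouse too. Over all genes compared, 14.0% were DLP higher in MYC and 6.29% in WT. All 7 MHC class II genes compared were DLP higher in MYC and 2 in WT, with medians of -1.64 and -0.87. Cd74, the invariant chain, was at 205 FPKM in MYC VP and 856.5 in MYC DLP, against 108.2 and 228.8 in WT. Of 22 chemokine genes, 13 were DLP higher and 1 VP higher in MYC, against 6 and 1 in WT, and the median went from -0.06 to -1.24. Ccl6 was at 2.136 and 20.84 FPKM, against 1.292 and 1.171. Cxcl10, an interferon-induced chemokine, was the 1 that was VP higher, at 533 and 212.3 FPKM against 49.58 and 36.97. Over 30 interferon-stimulated genes, 9 were DLP higher in MYC, against 8 DLP higher and 1 VP higher in WT, and 4 of these 9 WT differences stayed. Their medians were -0.66 in MYC and -0.61 in WT, with changes from WT to MYC of 1.61 in VP and 1.82 in DLP. Of 16 MHC class I genes, 5 were DLP higher in MYC and 1 in WT. B2m, the light chain of class I, was at 1113 and 2385 FPKM, against 2880 and 4736. The summed FPKM of the blood cell markers was 434 in MYC VP and 720 in MYC DLP, against 76.2 and 153 in WT, and its part in these values was not tested.

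Signalling and position genes also held more DLP-higher than VP-higher members. Of 40 growth factor, WNT, FGF and BMP genes compared, 21 were DLP higher and 0 VP higher in MYC, against 14 and 0 in WT, with medians of -1.05 and -0.78. The DLP-higher share of all genes compared was 14.0% in MYC and 6.29% in WT, so that a rise from WT to MYC is not particular to this list. Igf2, an insulin-like growth factor, was at 38.85 FPKM in MYC VP and 290.1 in MYC DLP, against 0.831 and 4.199. It was higher in both MYC lobes and its ratio went from -1.51 to -2.87. Areg, an EGF receptor ligand, was at 2.556 and 28.01 FPKM, against 3.231 and 9.447. Fgfr2, a receptor for FGF ligands, was at 2.544 and 20.09 FPKM, against 11.01 and 18.94, and so differed through a lower VP value. Of 24 homeobox and lobe position genes, 12 were DLP higher in MYC and 5 in WT. Gata2, a zinc finger transcription factor, was at 2.29 and 27.96 FPKM, against 11.58 and 53.31. Hoxd13 was at 2.788 and 18.2 FPKM, against 7.543 and 17.49.

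Of 30 secreted proteins of the prostate, 7 were VP higher and 15 DLP higher in MYC, against 4 and 14 in WT, with Sbp and Sbpl among them. Of 21 amino acid and solute transporters, 6 were VP higher and 7 DLP higher, with Aqp3, a water and glycerol channel, at 3.468 FPKM in MYC VP and 41.03 in MYC DLP. Complement genes were DLP higher in 11 of 21 in MYC and in 8 of 21 in WT. Their medians were -1.13 and -0.75, with 0 of 21 above 0 in either mouse. Immediate early genes, which tissue dissociation is known to induce, were DLP higher in 10 of 27 against 2 of 27. Socs3, a feedback inhibitor of cytokine signalling, was at 46.24 and 175.3 FPKM, against 120.3 and 319.4. Against the 14.0% of all genes in MYC, glutathione and peroxide genes were DLP higher in 6 of 27 (3 in WT), mucin and glycosyltransferase genes in 7 of 16 (4 in WT), and citrate, TCA cycle and zinc genes in 2 of 24 (3 in WT). Steroid receptor and enzyme genes were VP higher in 1 of 18 and DLP higher in 2: Esr2 was at 3.218 and 0.435 FPKM and Esr1 at 1.841 and 7.333, estrogen receptors with ratios of 1.56 and -1.55 that pointed in opposite directions. Of 10 polyamine genes, Smox, spermine oxidase, was DLP higher, at 23.15 and 84.56 FPKM against 16.34 and 23.57. Of 10 genes of the MYC, MAX and MXD network, Myc was VP higher and Mxd1, a MAX partner, DLP higher, with a ratio of -1.16 against -0.42 in WT. The 33 translocon and vesicle transport genes, the 4 nerve and glia genes, the 3 skeletal muscle genes and the 1 adipocyte gene compared had 0 past 2-fold in MYC.

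**Figure D5:**
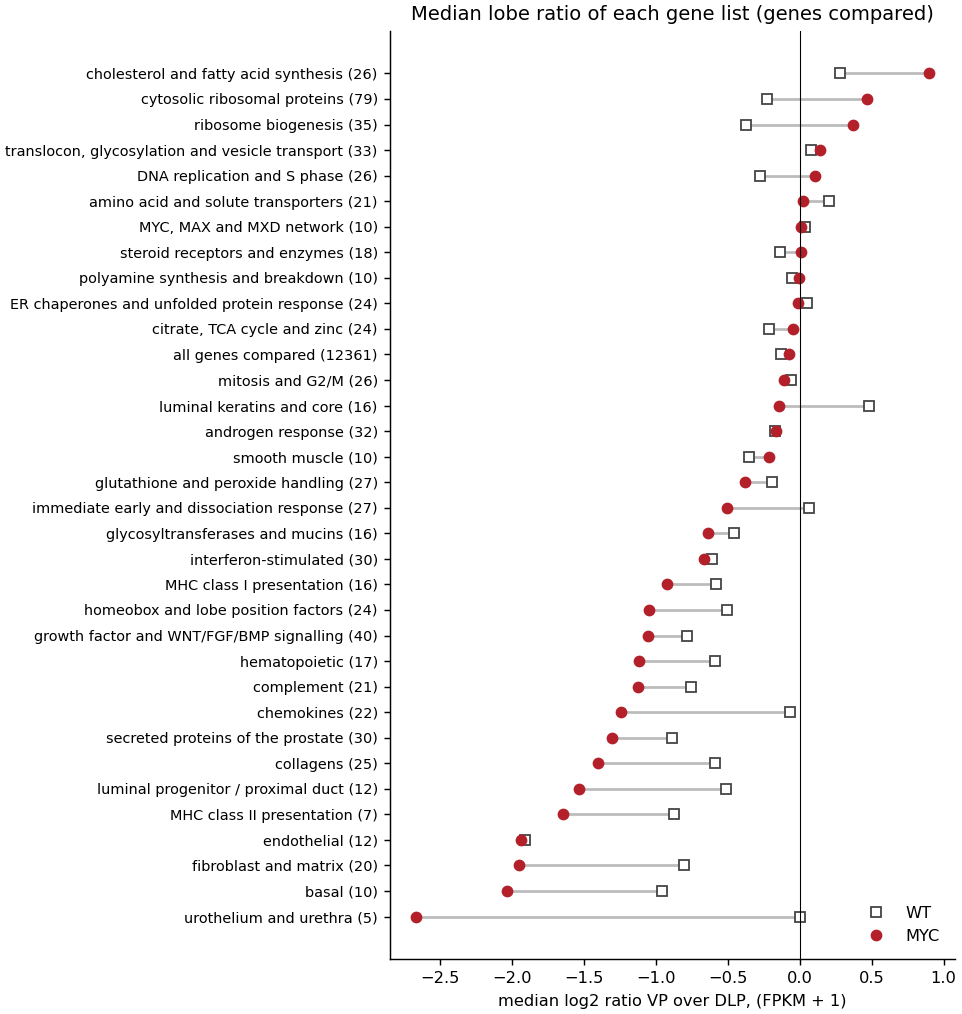
Median log2 ratio of VP over DLP of each gene list with at least 5 genes compared, in MYC (filled circles) and WT (open squares), with the number of genes in brackets and the line joining the pair. Cholesterol synthesis (0.90), ribosomal proteins (0.47) and ribosome biogenesis (0.37) stand at the top in MYC, and 13 lists lie at -1 or below in MYC, of which only the endothelial list does so in WT. With Krt8 and Krt18 set equal the first 3 medians fall below 0.

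The direction turned around in 19 genes, 7 of them now VP higher and 12 now DLP higher, and 6 of the 19 were small RNA genes. Krt4, a keratin of luminal progenitor cells, was at 7.093 FPKM in MYC VP and 45.94 in MYC DLP, against 53.31 and 20.3 in WT. Oit1 was at 8.359 and 28.61 FPKM, against 321.8 and 60.61. Oit1 turned through a VP value that fell further than that of DLP, and Krt4 through both lobes. Mfap4, a microfibril protein, was at 9.244 and 37.71 FPKM, against 60.51 and 26.42. Gpx3, a secreted glutathione peroxidase, was at 95.44 and 248.5 FPKM, against 364.1 and 150.6. Anxa13, an annexin of epithelial membranes, was the 1 named gene that turned towards VP, at 20.5 and 8.412 FPKM against 6.22 and 13.71. In all 19 genes the counting intervals of the WT and MYC ratios did not meet. Choosing genes past 2-fold in opposite directions makes this likely, and the intervals cover counting of reads only.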

How the data were processed

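Per the labels, the authors used bcl2fastq 2.18, STAR and Cufflinks with mm10. The deposited table gives FPKM of the 6 libraries, with values that are not whole numbers. No count model was run. Ratios were log2((FPKM + 1) of VP / (FPKM + 1) of DLP) over genes whose mean reached 1 FPKM, without further scaling. Mapped reads were estimated from the steps of low FPKM (under 0.3) of genes with 1 exon, longer than 600 bases in GENCODE M1, with an assumed fragment of 200 bases. Of these values, between 34.4% and 48.3% were whole reads to within 3%. Reads per gene, and the exact intervals made from them, used mean transcript lengths found for 90.0% of the genes compared. FPKM are relative to each library's total, so a few very high transcripts lower the rest.

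Named genes were those the study discusses, the 5 largest ratios per class and direction among genes of at least 10 FPKM (without small RNA, predicted and RIKEN symbols) and the 3 largest of each of 37 lists. Rnase1, Mmp7, Clu, Cxcl10, Srebf1, Srebf2 and the other cholesterol genes beyond 3 were chosen after their values were seen. Some genes that meet the rule are not reported here. The genes and lists were chosen with earlier results of these data known. Of the 24908 symbols, 24817 were found in RefSeq. The classes stayed, vanished and appeared were run on simulated libraries, and 100 of 100 genes of each of these were recovered. The planted changes were larger than the threshold and the only noise was that of counting reads. The simulation held no difference between animals, so it checks the sorting of genes and not the classes themselves. Alternatives were other scalings, pseudocounts, filters and thresholds. The tools were Python 3.11.15, scipy 1.17.1, numpy 2.4.6, matplotlib 3.10.9 and pandas 2.3.3.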

Additional observations from a re-analysis of the deposited data

Results flagged for a closer look

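These results stand out because the VP and DLP of the 2 mice pointed in opposite directions. With 1 library per lobe and genotype, none of these differences was tested. The values are the log2 lobe ratio in MYC minus that in WT. For the genes named here that turned around, the difference was -4.05 for Oit1, -3.89 for Krt4, -3.08 for Mfap4, -2.64 for Gpx3 and 2.22 for Anxa13. For gene lists of at least 5 genes whose median had the opposite sign in the 2 mice and differed by at least 0.5, it was 0.695 for cytosolic ribosomal proteins, 0.743 for ribosome biogenesis, -0.62 for the luminal genes, -0.572 for immediate early genes and -2.67 for the 5 urothelial genes, between medians of 0.00 and -2.66. By medians of ratios the luminal genes had medians of 0.0288 in MYC and 0.697 in WT, so that their signs no longer differed, and their median difference gene by gene as deposited was -0.425. For the 5 urothelial genes the median of the differences gene by gene was -1.29, and over the 4 members of at least 10 FPKM the WT median was -0.587, so that the signs no longer differed. The list rests on few genes, such as Upk1b at 5.089 FPKM in MYC VP and 37.56 in MYC DLP.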

How the results depend on the processing

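The MYC counts in each direction and the numbers that stayed, vanished, appeared and turned, over both directions, kept within 1.5 times of their values under both scalings to equal sums, under medians of ratios, without a filter, without small RNA genes and without genes listed at 0. By direction, the VP differences that appeared went from 130 to 77 under equal sums and the VP differences that vanished from 69 to 107 by medians of ratios. Medians of ratios shifted the all-gene median in MYC from -0.07 to 0.07, and the share of VP-higher genes among the MYC differences from 20.2% to 31.0% (628 VP higher, 1401 DLP higher), and equal sums gave 15.6%. The WT counts of 325 VP higher and 778 DLP higher became 496 and 532 by medians of ratios, 449 and 1379 at a pseudocount of 0.1, 124 and 176 at one of 10, 176 and 357 at a minimum of 10 FPKM, 85 and 92 at 4-fold, and 63 and 9885 with Krt8 and Krt18 equal. The order of the counts below is VP higher, DLP higher, stayed, vanished, appeared and turned. A pseudocount of 10 gave 131, 415, 156, 59, 200 and 8, a minimum mean of 10 FPKM gave 211, 677, 362, 58, 212 and 12, and a 4-fold threshold gave 87, 303, 75, 29, 86 and 4. A pseudocount of 0.1 gave 1333 that stayed and 42 that turned. With Krt8 and Krt18 set equal, an alternative chosen after seeing the data, the median of all genes was -0.95 in MYC and -1.40 in WT and the counts were 92, 5720, 5261, 979, 177 and 14. The number of lists with a median of -1 or below was 13, with 3 at a pseudocount of 10 and 24 with Krt8 and Krt18 equal. The number above 0 was 8, with 14 by medians of ratios, 5 by equal sums and 0 with Krt8 and Krt18 equal. Without the 20 highest genes in the sums, VP changed more in 85.5% of the VP differences that vanished (75.4% as deposited), in 66.0% of the VP differences that appeared (78.5%) and in 55.1% of the DLP differences that appeared (44.7%).

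Sign changes are named for list medians at least 0.3 from 0 as deposited. With Krt8 and Krt18 equal, 9 MYC list medians changed sign, 5 of them smaller than that and the other 4 those of ribosomal proteins (-0.61), ribosome biogenesis (-0.61), cholesterol and fatty acid synthesis (-0.076) and skeletal muscle (-0.40), all above the -0.95 of all genes, and the WT median of the luminal genes was -1.05. The median change of the lobe ratio from WT to MYC changed sign for 13 lists, 9 of them under 0.3 and the other 4 luminal genes (0.0713), MHC class I (0.11), immediate early genes (0.00828) and growth factors (0.19). At a minimum of 10 FPKM it did so for 6 lists, 4 of them under 0.3 and the other two blood cell genes (0.00203) and transporters (0.067). The cause of these shifts was not tested.

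Each lobe ratio was taken within the same mouse, but no paired test of the lobes within a genotype was possible because each group holds 1 library. No library was left out, for the same reason. Genes under about 1 FPKM are understated by the pseudocount, and FPKM of genes shorter than a read fragment are uncertain.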
